A study of Mus musculus with 6 samples.

Results

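Small nucleolar RNAs and the transcripts that carry them were followed in satellite cells of mouse muscle, which are the stem cells that rebuild the tissue after injury, with and without the transcription factor YY1. The members were the symbols present in both deposited expression tables that begin with Snora, Snord, Scarna or Snhg and a digit, together with Gas5, Rmrp and Rpph1. They numbered 130 of the 24067 symbols that both tables list. Of these, 116 were small RNA genes, namely 36 Snora, 69 Snord and 9 Scarna genes with Rmrp and Rpph1, and 14 were host transcripts, namely Gas5 and 13 Snhg genes. Snhg17 and Snhg20 were listed in only 1 of the tables and are not members.

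The RNA libraries were a Yy1 iKO library and a WT library from each of 2 states. FISC are freshly isolated satellite cells and ASC are activated satellite cells after 36 h of culture. All 4 were made from polyadenylated RNA of adult mouse muscle satellite cells, and the labels give neither the driver nor the timing of the knockout, nor the number, age or sex of the animals. A YY1 chromatin immunoprecipitation and an input library came from ASC labelled C57, and their peak list has positions on mm9. Each group was 1 library, so differences between groups have no replicate check, no p-value and no error, and the comparisons describe these libraries.

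Box C/D RNAs (the Snord genes) guide 2'-O-methylation of ribosomal RNA, box H/ACA RNAs (the Snora genes) guide its pseudouridylation, and scaRNAs guide the same changes on spliceosomal RNAs in Cajal bodies. In mammals most of them are not transcribed on their own. They lie in introns of host genes and are released when the spliced intron is debranched and trimmed. Many hosts encode ribosomal proteins or translation factors. In Gas5 and the Snhg genes the spliced exons carry no long reading frame, and several of these spliced RNAs are known substrates of nonsense-mediated decay. Rmrp and Rpph1 are the catalytic RNAs of RNase MRP, which cuts ribosomal RNA precursors, and of RNase P, which trims the start of tRNAs, and RNA polymerase III transcribes both from their own promoters. Mature snoRNAs and scaRNAs have no poly(A) tail, so selection for polyadenylated RNA captures them poorly and their values are given below as library composition beside their hosts.

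Levels are FPKM, fragments scaled by transcript length and library size, as deposited. Yy1 itself was at 20.1 FPKM in FISC Yy1 iKO and 51.0 FPKM in FISC WT, and at 2.03 FPKM in ASC Yy1 iKO and 55.2 FPKM in ASC WT. A ratio below is log2((FPKM + 1)/(FPKM + 1)) with Yy1 iKO on top, taken where either library of the pair reached 1 FPKM, and it understates differences of low genes. A gene is called higher or lower at a 2-fold difference of FPKM + 1, a size threshold with no test behind it. By that rule 0.677% of 11229 genes were higher and 0.721% lower in the FISC pair, and 8.74% of 11215 genes were higher and 8.26% lower in the ASC pair. The number of fragments is not in the files. Among low genes the most frequent ratio of values corresponded to 1.00 iKO fragment per WT fragment in FISC and to 0.666 in ASC. FISC and ASC were deposited as separate tables, and their levels are set side by side without a fold. The satellite cell markers Myod1, Des and Itga7 were above 100 FPKM in all 4 libraries, and the leukocyte marker Ptprc was at 0.116 FPKM or less. Of the 8 satellite cell markers read, 7 had ASC ratios below 0 and 1, Sdc4, above. Myf5, Cdh15 and Vcam1 were at 28.3, 29.3 and 27.6 FPKM in ASC iKO and at 45.7, 41.4 and 62.2 FPKM in ASC WT. The 5 fibroblast genes summed to 196 FPKM in FISC iKO and 185 FPKM in FISC WT, with 2 ratios above 0 and 3 below. In ASC they summed to 7.76 FPKM in iKO and 11.1 FPKM in WT. In the ASC pair Pax7 was at 6.19 FPKM in iKO and 28.3 FPKM in WT, and the 5 immune genes in the table summed to 14.9 FPKM in iKO and 4.18 FPKM in WT, with Ptprc and Adgre1 at 0 in both. The 5 erythroid genes were present in FISC, at a sum of 496 FPKM in iKO and 385 FPKM in WT, and at or near 0 in ASC. Their FISC ratios were above 0 for 4 and below for 1, Hbb-b1, at −1.25. The part of these differences in the results below was not tested. In bulk libraries fewer cells of a type and less RNA per cell cannot be told apart.

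The host transcripts stood close to each other in the FISC pair and were higher in the iKO library of the ASC pair. In FISC, 12 of the 14 passed 1 FPKM, none was called higher or lower, 6 ratios were above 0 and 6 below, and their median was −0.0047, beside −0.0027 over all genes. In ASC, 13 passed, 10 of them (76.9%, against 8.74% of all genes) were called higher, none was called lower, all 13 ratios were above 0 as deposited, and their median was 1.40, against −0.0025 over all genes. Snhg11, the remaining host, was near 0 throughout, at 0.163 FPKM in FISC iKO and 0.224 FPKM in FISC WT, and at 0.0875 FPKM in ASC iKO and 0.151 FPKM in ASC WT.

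The most abundant host in ASC was Snhg1, whose introns hold Snord22 and other box C/D RNAs. Snhg1 was at 602 FPKM in ASC iKO and 227 FPKM in ASC WT, and at 261 FPKM in FISC iKO and 267 FPKM in FISC WT. The ASC libraries were thus apart by a ratio of 1.40 and the FISC libraries by −0.03. Snhg6, host of Snord87, was at 591 FPKM in ASC iKO and 212 FPKM in ASC WT, and at 89.9 FPKM in FISC iKO and 103 FPKM in FISC WT. Snhg12, at whose locus 4 member RNAs are listed, was at 185 FPKM in ASC iKO and 70.1 FPKM in ASC WT, and at 225 FPKM in FISC iKO and 222 FPKM in FISC WT. All 3 had nearly level values in FISC and higher values in the ASC iKO library.

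Snhg3 had the highest ASC ratio of the hosts listed above 0 in both ASC libraries, 1.80. It stood at 231 FPKM in ASC iKO and 65.6 FPKM in ASC WT, and at 31.8 FPKM in FISC iKO and 19.8 FPKM in FISC WT, where its ratio of 0.66 was also the highest of the hosts. Snhg8, which carries Snora24, was likewise above 0 in both pairs. Its levels were 87.5 FPKM in ASC iKO and 29.1 FPKM in ASC WT, and 47.5 FPKM in FISC iKO and 31.5 FPKM in FISC WT, with ratios of 1.55 and 0.58. Snhg7, which carries Snora17 and Snora43, was at 38.9 FPKM in ASC iKO and 11.2 FPKM in ASC WT, and at 8.73 FPKM in FISC iKO and 10.8 FPKM in FISC WT. Its ratio was 1.72 in ASC and −0.28 in FISC.

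Snhg5 and Snhg4 were just inside the 2-fold rule in ASC, with ratios of 1.03 and 1.06. Snhg5 was at 152 FPKM in ASC iKO and 74.3 FPKM in ASC WT, and at 70.3 FPKM in FISC iKO and 65.1 FPKM in FISC WT. Snhg4, host of Snora74a, was at 63.9 FPKM in ASC iKO and 30.2 FPKM in ASC WT, and at 19.5 FPKM in FISC iKO and 18.2 FPKM in FISC WT. Gas5, named for its accumulation in growth-arrested cells, was outside the rule with an ASC ratio of 0.51. Its levels were 104 FPKM in ASC iKO and 72.6 FPKM in ASC WT, and 67.9 FPKM in FISC iKO and 76.2 FPKM in FISC WT.

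The remaining hosts were scarce. Snhg10, host of Scarna13, was at 7.20 FPKM in ASC iKO and 1.89 FPKM in ASC WT, and at 1.35 FPKM in FISC iKO and 1.75 FPKM in FISC WT. Snhg9, host of Snora78, was at 11.1 FPKM in ASC iKO and listed at 0 in ASC WT, and at 5.23 FPKM in FISC iKO and 6.59 FPKM in FISC WT. Snhg9 was the only host listed at 0 in any library, and it counts as 1 of the 10 called higher. Snhg18 was at 2.03 FPKM in ASC iKO and 0.961 FPKM in ASC WT, with a ratio of 0.63, and at 2.32 FPKM in FISC iKO and 2.16 FPKM in FISC WT. Snhg14, a long transcript of the imprinted Prader-Willi region, was at 1.47 FPKM in ASC iKO and 1.41 FPKM in ASC WT, and at 0.748 FPKM in FISC iKO and 0.810 FPKM in FISC WT.

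**Figure D1:**
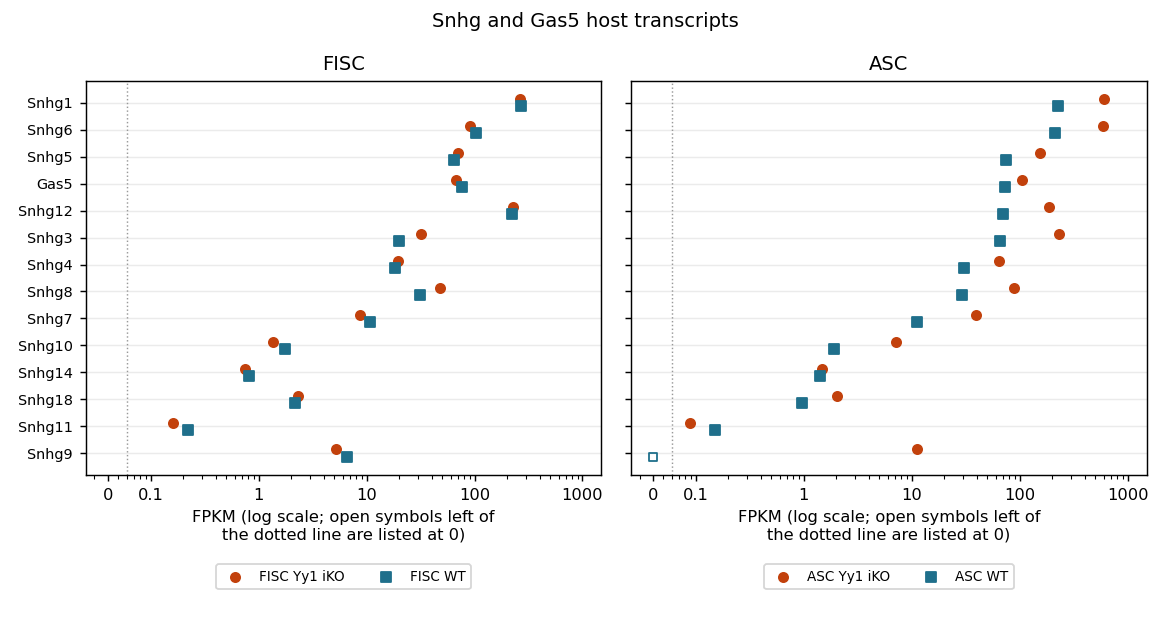
FPKM (log scale) of the 14 host transcripts in Yy1 iKO (circles) and WT (squares), with FISC at the left and ASC at the right, 1 library per symbol. In FISC the symbols of most hosts nearly coincide, with Snhg3 and Snhg8 apart by ratios of 0.66 and 0.58, and in ASC the iKO symbol lies to the right for 13 of 14 hosts, Snhg11 being the exception at 0.0875 and 0.151 FPKM.

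The scale of the ASC libraries bears on these counts. The iKO column of the ASC table sums to 1245940 FPKM and the WT column to 505469 FPKM, and Mir762 alone was listed at 496241 FPKM in iKO and at 0 in WT. Rescaling the iKO library to the sum without small RNA genes shifted the all-gene median by −0.49 and left 4 hosts called higher, and upper-quartile scaling shifted it by −0.15 and left 8. Of all 11215 genes, 164 were then higher and 2464 lower with scaling to the sum, and 578 higher and 1285 lower with upper-quartile scaling. Under the first of these the ratio of Gas5 was −0.05 and that of Snhg14 −0.28, and under the second that of Snhg14 was −0.07, while the other hosts stayed above 0. Taken relative to the median of all genes under the same scaling, the median of the 13 hosts was 1.41 as deposited, 1.38 with upper-quartile scaling and 1.32 with scaling to the sum.

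Locus length also moved with the ASC ratios. Of the 13 hosts tested in ASC, 11 lie in the shortest decile of loci, whose median length was 2.81 kb, and the other 2 in the next decile. In the shortest decile the median ratio of all genes was 0.67 and 29.2% of 1122 genes were called higher. In the next decile these were 0.39 and 15.9%. The part of locus length, or of any length-dependent property of the libraries, in the host ratios was not tested.

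Host genes outside the Snhg family were found from the listed loci, since 107 of the 116 small RNA genes carry the merged locus of another gene or lie within one. The 79 first-ranked hosts so found comprised 10 of the Snhg and Gas5 members, 21 ribosomal protein genes and 48 other genes. In ASC all 21 ribosomal protein hosts had ratios above 0 under each of the 3 scalings, with a median of 1.07 as deposited. Of them 14 (66.7%) were called higher as deposited, against 8.74% of all genes and 29.2% of genes in the shortest decile of loci. With upper-quartile scaling 5 were called higher and with scaling to the sum 1, beside 578 and 164 of all 11215 genes. The part of locus length in the ratios of these hosts was not tested. All 82 ribosomal protein symbols tested, hosts or not, had a median of 1.09, with 58 called higher and 1 lower as deposited, and 23 were higher with upper-quartile scaling and 3 with scaling to the sum. The 46 tested hosts of the third kind had a median of 0.11. Of them 5 (10.9%, against 8.74% of all genes) were called higher and 2 (4.35%, against 8.26%) lower. With upper-quartile scaling their median was −0.06, with 4 higher and 5 lower. The all-gene median was then −0.16, with 578 of 11215 genes higher and 1285 lower. With scaling to the sum the median of these hosts was −0.44, with 1 higher and 11 lower. That of all genes was then −0.49, with 164 higher and 2464 lower. In FISC the medians were 0.07 for ribosomal protein hosts and −0.05 for the third kind, and neither held a called gene.

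Among the hosts of the third kind, the 6 listed under Rik symbols had an ASC median of 0.86. Of them 3 (50%, against 8.74% of all genes) were called higher as deposited. With scaling to the sum 1 was, beside 164 of all 11215 genes. The RNA listed as 1500012F01Rik, which the RefSeq gene table names Zfas1 and which carries Snord12, was at 432 FPKM in ASC iKO and 130 FPKM in ASC WT, with a ratio of 1.73, and at 194 FPKM in FISC iKO and 149 FPKM in FISC WT. Dancr was at 26.5 FPKM in ASC iKO and 10.1 FPKM in ASC WT, and at 8.56 FPKM in FISC iKO and 6.20 FPKM in FISC WT. The RNA listed as 1810032O08Rik, named Snhg16 in the same table and host of Snord1a, Snord1b and Snord1c, differed less, at 25.1 FPKM in ASC iKO and 20.5 FPKM in ASC WT, and at 39.0 FPKM in FISC iKO and 39.9 FPKM in FISC WT. Zfas1, Dancr and Snhg16 were singled out here after their values were seen. Protein-coding hosts lay on both sides of 0. Eef1b2, which encodes a subunit of the translation elongation factor complex, was at 899 FPKM in ASC iKO and 405 FPKM in ASC WT, whereas Ipo7, a nuclear import receptor, was at 30.5 FPKM in ASC iKO and 176 FPKM in ASC WT.

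**Figure D2:**
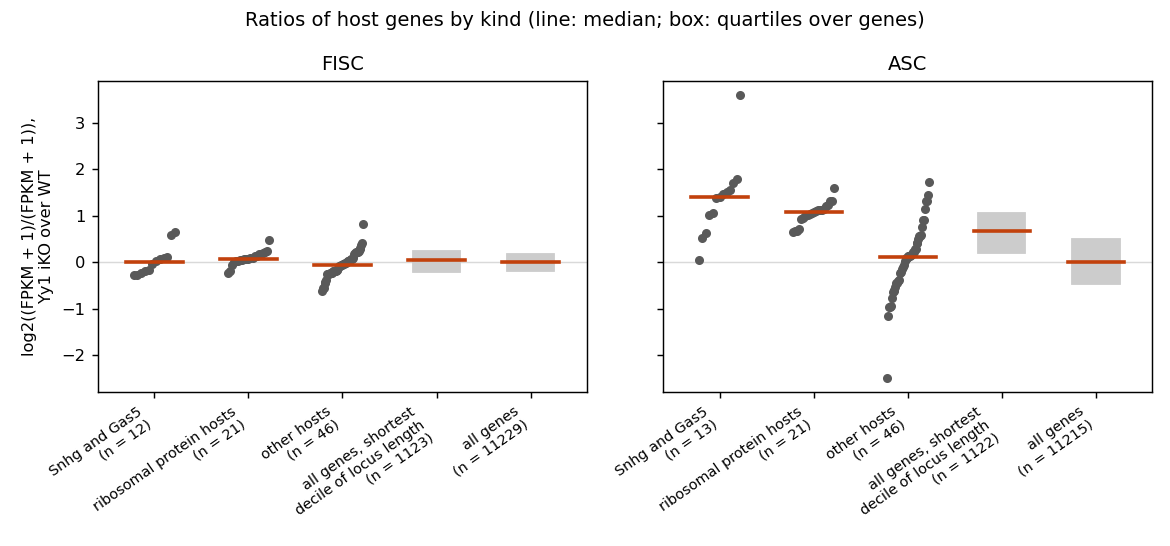
Ratios of host genes by kind, with FISC at the left and ASC at the right. Points are genes, red lines are medians, and grey boxes give the quartiles of all genes in the shortest decile of loci and of all genes. In ASC the medians run from 1.40 (Snhg and Gas5) and 1.07 (ribosomal protein hosts) to 0.11 (other hosts), beside 0.67 for the shortest loci, and in FISC all lie near 0.

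The starts of the host transcripts were examined because hosts of snoRNAs, like ribosomal protein mRNAs, are known for a 5' terminal oligopyrimidine tract, a cytosine followed by a run of pyrimidines that places translation under mTOR control. RefSeq promoter windows (GRCm38.p6, 250 bases before and 50 after an annotated start) were matched by symbol for 12 of the 14 hosts, in 13 windows. The lines below give 30 bases, from 10 before the annotated first base of the transcript, for the hosts with such a run and for Snhg1 and Snhg5, 2 abundant hosts without one. Capitals mark a C within 5 bases of the annotated start and the C or T that follow it, where these make at least 5 bases. Pyrimidines may also precede the marked C. In Snhg9 and Snhg10 the marked bases all lie before the annotated start.
Snhg3, chr4:132353667-132353696, minus strand: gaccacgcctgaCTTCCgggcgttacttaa
Snhg7, chr2:26640225-26640254, minus strand: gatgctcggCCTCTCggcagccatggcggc
Snhg8, chr3:123508317-123508346, minus strand: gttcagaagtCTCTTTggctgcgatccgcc
Snhg9, chr17:24719946-24719975, minus strand: actttCCCTCgccgaagccgcgccctacac
Snhg10, chr12:105032260-105032289, minus strand: ggttcCTTTTgcggtgattgctacggtaac
Snhg12, chr4:132308668-132308697, plus strand: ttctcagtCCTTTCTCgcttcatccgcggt
Snhg18, chr15:32244643-32244672, minus strand: cccaggCCCCTCCTCTagccccgcctcttc
Gas5, the downstream of its windows, chr1:161035156-161035185, plus strand: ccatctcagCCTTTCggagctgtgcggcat
Snhg1, chr19:8723477-8723506, plus strand: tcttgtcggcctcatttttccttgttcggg
Snhg5, chr9:88522878-88522907, minus strand: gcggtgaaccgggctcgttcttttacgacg

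A run of this kind was found in 8 of the 13 host windows (61.5%), in 32 of 77 windows of ribosomal protein genes (41.6%) and in 18.3% of all 32851 windows. These are runs near an annotated start, and those of Snhg9 and Snhg10 lie outside the annotated transcript. The count is thus not one of terminal tracts. The criterion was set after the sequences had been seen, so the share of host windows is a description. Hosts with and without a run are found on both sides of the 2-fold rule in ASC: Snhg1 and Snhg5, which have none by this criterion, were called higher, and Gas5 and Snhg18, which have one, were not.

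Of the 116 small RNA genes, 89 were listed at 0 in all 4 libraries. The share was unequal between the classes, with 65 of 69 Snord, 7 of 9 Scarna and 17 of 36 Snora genes at 0 throughout, and both Rmrp and Rpph1 above 0. Only Snora70, Snora81, Snord22 and Rpph1 were above 0 in all 4 libraries, against 13 of the 14 host transcripts. In the FISC pair 14 small RNA genes were above 0 in iKO and 11 in WT, and in the ASC pair 20 in iKO and 18 in WT. Across states, 13 genes were above 0 in both, 3 in FISC only and 11 in ASC only. For comparison, of the microRNA (Mir) genes 6 of 1156 were above 0 in FISC iKO and 8 in FISC WT, and 11 of 1152 in ASC iKO and 12 in ASC WT.

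**Figure D3:**
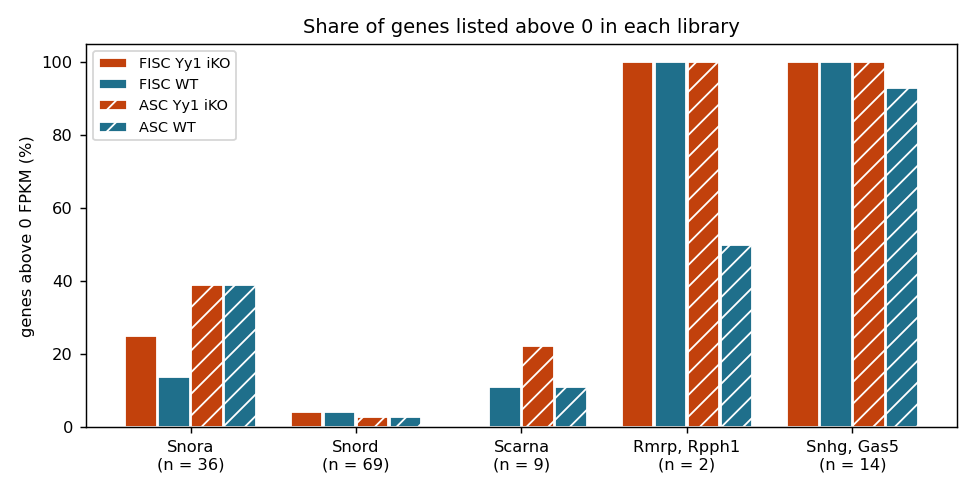
Percentage of the genes of each class listed above 0 FPKM in each library, with Yy1 iKO left of WT, FISC plain and ASC hatched. The Snord bars stay low (65 of 69 genes are at 0 in all 4 libraries), the Snora bars are higher, and the host transcripts reach 100% in 3 of the 4 libraries, Snhg9 being at 0 in ASC WT.

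The small RNA genes together held 1851 FPKM in FISC iKO and 1139 FPKM in FISC WT, or 0.348% and 0.209% of the summed FPKM of those libraries. In ASC they held 1064 FPKM in iKO and 932 FPKM in WT, or 0.0854% and 0.184%, and the iKO share was 0.142% when the Mir genes were left out of the sum. The host transcripts held 832 FPKM in FISC iKO and 825 FPKM in FISC WT, and 2078 FPKM in ASC iKO and 796 FPKM in ASC WT. As shares of the summed FPKM, the hosts held 0.157% in FISC iKO and 0.151% in FISC WT. In ASC they held 0.167% in iKO and 0.157% in WT, or 0.277% and 0.158% without the Mir genes. The FISC libraries thus differed in the sum of the small RNA genes and hardly in that of the hosts. In ASC the FPKM sums differed more in the hosts, as did the shares without the Mir genes. The shares of all summed FPKM in ASC differed more in the small RNA genes.

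Much of the FISC difference lay in a few genes. Snord22, the U22 RNA required for processing of small-subunit ribosomal RNA, was the highest of them, at 718 FPKM in FISC iKO and 300 FPKM in FISC WT, and at 218 FPKM in ASC iKO and 138 FPKM in ASC WT. Snora64 was at 445 FPKM in FISC iKO and listed at 0 in FISC WT, but at 48.1 FPKM in ASC iKO and 114 FPKM in ASC WT. Snora28 was at 145 FPKM in FISC iKO and 0 in FISC WT, and at 0 in ASC iKO and 40.2 FPKM in ASC WT. Snora21 ran the other way in FISC, listed at 0 in iKO and at 247 FPKM in WT, and stood at 42.6 FPKM in ASC iKO and 24.0 FPKM in ASC WT. Of these 4, Snord22 alone was above 0 in every library.

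The 2 RNase RNAs were higher in the iKO library of both pairs. Rpph1, the RNase P RNA, was at 21.3 FPKM in FISC iKO and 5.30 FPKM in FISC WT, and at 15.2 FPKM in ASC iKO and 4.08 FPKM in ASC WT, with ratios of 1.82 and 1.67. Rmrp, the RNase MRP RNA, was at 30.6 FPKM in FISC iKO and 9.48 FPKM in FISC WT, a ratio of 1.59, and at 4.94 FPKM in ASC iKO and listed at 0 in ASC WT. With scaling to the sum without small RNA genes the ASC ratio of Rpph1 was 1.14. Rn45s, the ribosomal RNA precursor gene, which also has no poly(A) tail, was at 1289 FPKM in FISC iKO and 379 FPKM in FISC WT, and at 872 FPKM in ASC iKO and 879 FPKM in ASC WT. Of the other small non-coding RNA genes listed above 0, both at 0 in ASC, Rnu12 was at 17.6 FPKM in FISC iKO and 0 in FISC WT, and Vaultrc5 at 1.44 FPKM in FISC iKO and 2.31 FPKM in FISC WT. The FISC differences of Rn45s and Rnu12 have the direction of Rmrp and Rpph1. That of Vaultrc5, not called at a ratio of −0.44, has the opposite one. Whether capture of RNA without a poly(A) tail differed between the FISC libraries was not tested.

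The other box H/ACA genes varied in direction from gene to gene. In FISC, Snora52 was at 141 FPKM in iKO and 220 FPKM in WT, Snora16a at 122 FPKM in iKO and 126 FPKM in WT, and Snora70 at 69.3 FPKM in iKO and 113 FPKM in WT. Snora81 was the reverse, at 86.1 FPKM in FISC iKO and 38.5 FPKM in FISC WT. In ASC, Snora33 was at 184 FPKM in iKO and 0 in WT, and Snora15 at 52.6 FPKM in iKO and 0 in WT. Snora41 was at 0 in ASC iKO and 84.7 FPKM in ASC WT, and Snora3 at 0 in ASC iKO and 43.7 FPKM in ASC WT. Snora31 was high in both ASC libraries, at 155 FPKM in iKO and 189 FPKM in WT. Genes above 0 in 1 library of a pair were thus found in both directions, with 5 above 0 only in iKO and 2 only in WT in FISC, and 6 only in iKO and 4 only in WT in ASC.

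Some of these values coincide between genes of different hosts. Snora7a and Snora70, which lie in Rpl32 and Rpl10 on different chromosomes, had the same value as each other in ASC, 20.0 FPKM in iKO and 67.3 FPKM in WT. Snora34 and Snora65, in Kansl2 and Rpl12, were both at 52.0 FPKM in ASC WT, while in ASC iKO they were at 132 and 88.3 FPKM, a ratio of 1.5 between them. The fragments behind these values are not listed in the tables, and a very short transcript takes a high FPKM from each fragment.

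The remaining Snord and Scarna genes above 0 were few. Snord15b, a box C/D RNA in an intron of Rps3, was at 46.0 FPKM in FISC iKO and 67.4 FPKM in FISC WT and at 0 in both ASC libraries. Snord15a, its neighbour in the same host, was at 0 in both FISC libraries and at 7.83 FPKM in ASC iKO and 24.5 FPKM in ASC WT. Snord17, in Snx5, was at 2.38 FPKM in FISC iKO and 11.1 FPKM in FISC WT and at 0 in ASC. Scarna13 was at 0 in both FISC libraries and at 2.51 FPKM in ASC iKO and 2.06 FPKM in ASC WT. Scarna6, in Atg16l1, was at 0 in FISC iKO and 1.85 FPKM in FISC WT, and at 1.05 FPKM in ASC iKO and 0 in ASC WT.

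**Figure D4:**
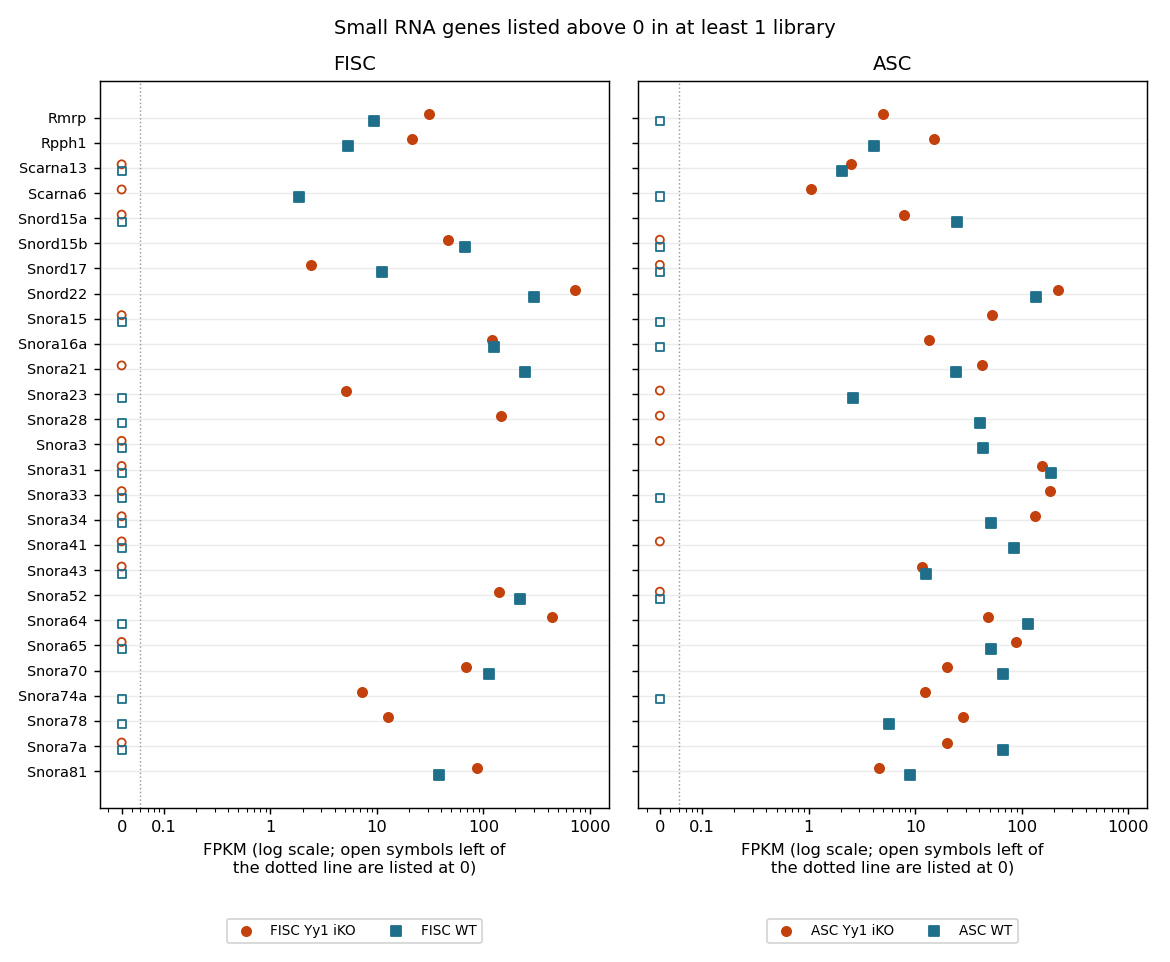
FPKM (log scale) of the 27 small RNA genes listed above 0 in at least 1 library, in Yy1 iKO (circles) and WT (squares), FISC at the left and ASC at the right. Open symbols left of the dotted line are values listed at 0. Many genes pair an open with a filled symbol, and only Snora70, Snora81, Snord22 and Rpph1 have filled symbols throughout.

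By the 2-fold rule, 9 of the 16 small RNA genes tested in FISC were higher (against 0.677% of all genes) and 3 lower (against 0.721%), with a median ratio of 1.20. Of the 24 tested in ASC, 9 were higher (against 8.74%) and 8 lower (against 8.26%), with a median of 0.43 as deposited and −0.05 with scaling to the sum without small RNA genes. Genes at 0 in 1 library of the pair necessarily reach such ratios. Among the genes above 0 in both libraries of a pair, 4 of 9 were higher and 1 lower in FISC, with a median of −0.04, and 3 of 14 higher and 4 lower in ASC, with a median of 0.05.

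Small RNA genes and their hosts are listed under the same locus, which allowed their ratios to be compared gene by gene. In FISC the 14 small RNA genes with a tested host differed from it by a median of 0.56 in log2 ratio, with 7 above and 7 below, but by −0.63 over the 7 small RNA genes above 0 in both libraries and by −0.015 without the filter on low values. In ASC the 22 such genes lay below their hosts by a median difference of −1.25, with 7 above and 15 below. The hosts in FISC hardly moved, as with Rps2, which carries Snora64 and was at 1667 FPKM in iKO and 1459 FPKM in WT. Rpl23, which carries Snora21, was at 1355 FPKM in FISC iKO and 1199 FPKM in FISC WT. In ASC, Rps12, which carries Snora33, was at 5349 FPKM in iKO and 2611 FPKM in WT, and Rpl32, which carries Snora7a, at 4960 FPKM in iKO and 2268 FPKM in WT. Tpt1, which carries Snora31, was at 3935 FPKM in ASC iKO and 2090 FPKM in ASC WT. Ribosomal protein genes have many near-identical processed copies in the genome, and the tables do not say how fragments shared with them were counted.

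In 3 pairs both the small RNA gene and the host were above 0 in all 4 libraries, Snord22 with Snhg1, Snora70 with Rpl10 and Snora81 with Eif4a2. In FISC the ratio of Snord22 was 1.26 and that of Snhg1 −0.03, and in ASC they were 0.66 and 1.40. Snora70 lay below its host in both pairs, with ratios of −0.69 in FISC and −1.70 in ASC against −0.06 and 0.68 for Rpl10. Snora81 was at 4.53 FPKM in ASC iKO and 9.01 FPKM in ASC WT, and its ratios were 1.14 in FISC and −0.86 in ASC against −0.05 and 0.51 for Eif4a2, a translation initiation helicase.

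The other pairs included low or missing values. Snora78 and Snhg9 were low throughout, with Snora78 at 12.7 FPKM in FISC iKO and 0 in FISC WT, and at 28.2 FPKM in ASC iKO and 5.73 FPKM in ASC WT. Snora74a, in Snhg4, was listed only in iKO libraries, at 7.29 FPKM in FISC and 12.4 FPKM in ASC. Snora23, in Ipo7, was at 5.09 FPKM in FISC iKO and 0 in FISC WT, and at 0 in ASC iKO and 2.59 FPKM in ASC WT. Snora43, in Snhg7, was at 11.6 FPKM in ASC iKO and 12.5 FPKM in ASC WT, a ratio of −0.10 against 1.72 for its host.

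**Figure D5:**
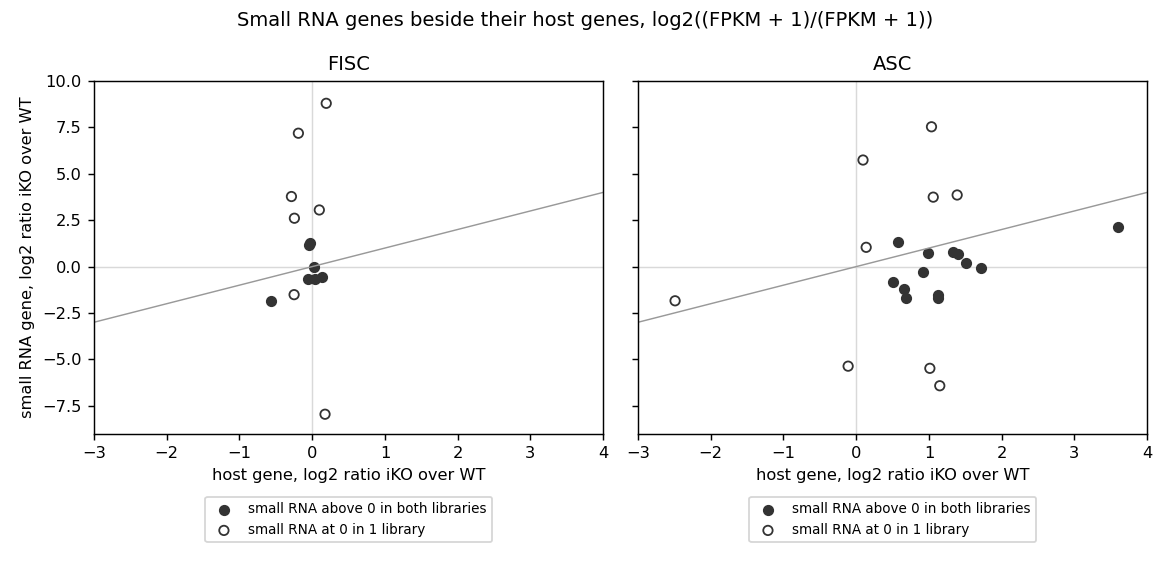
Log2 ratio of each small RNA gene (vertical axis) against that of its first-ranked host (horizontal axis), FISC at the left with 14 points and ASC at the right with 22. Filled points are small RNA genes above 0 in both libraries of the pair, open points are at 0 in 1 library, and the grey line marks equal ratios. The small RNA genes spread from −7.96 to 8.80 in FISC while hosts stay near 0, and in ASC 15 of 22 lie under the line.

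The protein partners of these RNAs were read from lists. None of the C/D core, H/ACA core, assembly, RNase P and MRP, nonsense-mediated decay or exosome genes was called in FISC, where the list medians lay between −0.05 and 0.04, against 0.677% and 0.721% of all genes. Over all genes in ASC, 8.74% were called higher and 8.26% lower as deposited. With upper-quartile scaling 578 of 11215 genes were higher and 1285 lower, and with scaling to the sum 164 and 2464. Of the 4 H/ACA core proteins, which bind Snora RNAs and scaRNAs, 3 were called higher in ASC as deposited. Nhp2 was at 499 FPKM in ASC iKO and 177 FPKM in ASC WT, Nop10 at 266 FPKM in iKO and 119 FPKM in WT, and Gar1 at 189 FPKM in iKO and 80.2 FPKM in WT. Dkc1, the pseudouridine synthase itself, was at 80.7 FPKM in ASC iKO and 113 FPKM in ASC WT. With upper-quartile scaling 2 of the 4 were called higher, and with scaling to the sum none was called higher and 1 lower.

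Of the 4 C/D core proteins, Fbl, the methyltransferase, was called higher in ASC, at 673 FPKM in iKO and 312 FPKM in WT, and Nop58 was nearly level, at 296 FPKM in iKO and 266 FPKM in WT. Fbl was not called under either rescaling. Nop56, which is also a host, was at 416 FPKM in ASC iKO and 277 FPKM in ASC WT. Nhp2l1, which binds the kink-turn of C/D RNAs, was at 283 FPKM in ASC iKO and 205 FPKM in ASC WT. None of the 16 assembly and Cajal body factors tested was called in either pair as deposited. Their ASC median was 0.27 as deposited and −0.25 with scaling to the sum, where 2 were called lower. The highest and lowest of these in ASC were Pih1d1, at 73.0 FPKM in iKO and 37.2 FPKM in WT, and Tcof1, at 31.1 FPKM in iKO and 52.8 FPKM in WT.

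Of the 11 RNase P and MRP proteins, 2 (18.2%, against 8.74% of all genes) were called higher in ASC as deposited and none lower. Rpp30 was at 89.6 FPKM in ASC iKO and 40.8 FPKM in ASC WT, and Pop5 at 91.9 FPKM in iKO and 45.0 FPKM in WT, while Pop1, the large subunit, was at 17.2 FPKM in iKO and 28.0 FPKM in WT. Neither Rpp30 nor Pop5 was called under a rescaling, and with scaling to the sum 1 of the list was called lower. Of the 12 decay factors, which degrade several spliced host RNAs, 1 (8.33%, against 8.26% of all genes) was called lower in ASC and none higher. It was Nbas, at 2.41 FPKM in iKO and 6.90 FPKM in WT. The kinase Smg1 was at 8.54 FPKM in ASC iKO and 17.8 FPKM in ASC WT, the helicase Upf1 at 32.2 FPKM in iKO and 44.2 FPKM in WT, and Upf3a at 43.9 FPKM in iKO and 24.7 FPKM in WT. The list median was −0.42, beside −0.0025 over all genes, and 9 of 12 ratios were below 0. Over all genes the ASC medians of locus length deciles 8, 9 and 10, the longest, were −0.31, −0.42 and −0.48. The part of locus length in the ratios of the decay factors was not tested. With upper-quartile scaling 2 of the list were called lower, beside 1285 of all 11215 genes. With scaling to the sum 4 were, beside 2464 of all genes, and 11 of 12 ratios were below 0. Of 19 exosome genes, whose products trim snoRNA ends, 4 (21.1%, against 8.74% of all genes) were called higher in ASC as deposited. These were Exosc5, Exosc6, Exosc7 and C1d, and none was called under a rescaling. Exosc6 was at 92.0 FPKM in ASC iKO and 41.8 FPKM in ASC WT.

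A list of 56 protein-coding snoRNA hosts from general knowledge had a median of 0.66 in ASC, and none was called in FISC. In ASC 16 were higher (28.6%, against 8.74% of all genes) and 2 lower (3.57%, against 8.26%). Apart from Eef1b2, the genes called higher were all ribosomal protein genes, many of them also counted among the ribosomal protein hosts above. Of the 16, none was called higher with scaling to the sum, where 7 of the list were lower, beside 2464 of all 11215 genes. Relative to the all-gene median under that scaling, the list median was 0.57. Rps24 was at 3085 FPKM in ASC iKO and 1146 FPKM in ASC WT. The 2 lower genes were Ipo7 and Chd4, a chromatin remodeler at 35.1 FPKM in ASC iKO and 73.3 FPKM in ASC WT.

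YY1 peaks near the members were compared with the background of the table. A summit within 2 kb of either end of the listed locus was found for 13 of the 130 members (10%), against 3.62% of the 24312 genes in the ASC table and 6.21% of those with at least 1 FPKM in ASC. The 13 members share 7 loci, so that 7 of 92 distinct loci (7.61%) had a peak. The share was 3.44% of all loci and 6.03% of the loci of genes with at least 1 FPKM in ASC. All 13 are small RNA genes listed at 0 in all 4 libraries. None of the 14 host transcripts had a peak in this window. The nearest were 4.18 kb from an end of Snhg4 and 32.1 kb from Gas5. None of the 37 members with at least 1 FPKM in ASC had one either.

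The strongest peak at a member locus lay at Rpl23a, where Snord4a, Snord42a and Snord42b are listed, at chr11:77997005-77997115 (mm9), with its summit 21 bases from an end of the locus. By the authors' peak list its fold enrichment was 6.84 and its −log10 q 4.82, and 176 of the 2031 peaks had at least its −log10 p of 9.84. The peak at Rpl13a, which holds Snord32a, Snord33, Snord34 and Snord35a, spanned chr7:52384266-52384451 (mm9), with its summit 254 bases beyond an end of the locus, a fold enrichment of 5.04 and a −log10 q of 2.30. At Sf3b3, which holds Snord111, the summit was 36 bases from an end. At Tcp1 and Acat3, with Snora20, it was 242 bases away, at Snord104 609 bases, at Rpl3, with Snord43 and Snord83b, 822 bases, and at Srcap, with Snora30, 1910 bases. These 5 had −log10 q values from 0 to 0.837, and the list is described here as deposited. Rpl23a was at 3606 FPKM in ASC iKO and 1653 FPKM in ASC WT, and Rpl13a at 3160 FPKM in ASC iKO and 1359 FPKM in ASC WT. Both fell within the range of the ribosomal protein hosts without a listed peak, 0.65 to 1.61.

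The letters of the YY1 recognition sequence were searched on both strands in the RefSeq windows, as AANATGGC and as its shorter form CCATNTT, whose reverse complement overlaps the longer one. AANATGGC was present in 1 of 13 host windows (7.69%), in 22.1% of 77 windows of ribosomal protein genes and in 6.05% of all 32851 windows. CCATNTT was present in 2 of 13 host windows (15.4%), in 33.8% of the ribosomal protein windows and in 16.1% of all windows. The host with AANATGGC was Snhg3, in which it begins at base 27 after the start. Its window is printed with the match in capitals, since Snhg3 had the highest ratio of the hosts above 0 in all libraries.
Snhg3, chr4:132353637-132353936, minus strand, GRCm38.p6: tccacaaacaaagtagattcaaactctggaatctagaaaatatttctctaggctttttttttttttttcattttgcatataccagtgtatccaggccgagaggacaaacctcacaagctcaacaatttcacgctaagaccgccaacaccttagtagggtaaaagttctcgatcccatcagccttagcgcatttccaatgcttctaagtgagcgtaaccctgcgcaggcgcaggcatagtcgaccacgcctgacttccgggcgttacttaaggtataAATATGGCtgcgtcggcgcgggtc

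No peak lay within 2 kb of Snhg3, the nearest summit being 135 kb away. Rpl13a, which has a peak, has AANATGGC at positions −127 and 29 relative to its annotated start. Of the other hosts with a peak, Sf3b3, Tcp1 and Srcap had a window, and none of these held AANATGGC. For Rpl13a, the 250 bases before the start are printed with the first match in capitals, followed by 30 bases around the second.
Rpl13a, chr7:45128746-45128995, minus strand, GRCm38.p6: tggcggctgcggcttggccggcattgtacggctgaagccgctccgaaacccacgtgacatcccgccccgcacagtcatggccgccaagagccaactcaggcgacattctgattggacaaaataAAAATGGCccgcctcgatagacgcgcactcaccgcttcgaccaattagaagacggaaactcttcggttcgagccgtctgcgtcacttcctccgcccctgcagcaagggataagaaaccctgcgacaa
Rpl13a, chr7:45128702-45128731, minus strand, GRCm38.p6: ccaggcggctgccgAAGATGGCggaggggc

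The peaks are placed on mm9 and the windows on GRCm38.p6, and no position was carried from one to the other, so whether a match lies under the peak was not determined. A match is a description of the letters and not of binding.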

How the data were processed

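Polyadenylated RNA was sequenced in 4 libraries (FISC and ASC, each Yy1 iKO and WT), and YY1 chromatin immunoprecipitation with input in ASC gave 1 peak list. The deposited values are FPKM in 1 table per state, per the file headers. The peak list is in narrowPeak layout, with a score, a fold enrichment, −log10 p and −log10 q for each peak as the authors deposited them. The submitters' processing notes name mm9, MACS2 2.1.0, Cufflinks 2.2.1 and TopHat2, without roles. The annotation, the strand setting and any filter were not given in the sources used here. The scores were not used.

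Ratios were log2((FPKM + 1)/(FPKM + 1)), iKO over WT, on genes with at least 1 FPKM in a library of the pair, and were calculated with Python 3.11.15, pandas 2.3.3 and numpy 2.4.6 and plotted with matplotlib 3.10.9. Depth is unknown, so no interval or floor is given. A host was another symbol whose listed locus equals or holds that of the small RNA gene, ranked by mean FPKM. Peaks were assigned by summit within 2 kb of an end of a locus. Promoter sequences are from RefSeq (GRCm38.p6), which was also used for names.

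Named were Rmrp, Rpph1, Gas5 and the Snhg and Scarna genes at 1 FPKM or more, the 10 highest Snora and Snord genes of each library with the 5 highest and 5 lowest ratios of each pair, their hosts, and the extremes of each gene list. A gene named beyond this rule was chosen after its values were seen. The members and lists were chosen with earlier results of these data known. Alternatives were other pseudocounts, filters, scalings, folds, windows and host choices. A withheld or unmatched sequence is not printed.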

Additional observations from a re-analysis of the deposited data

Results flagged for a closer look

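For 4 small RNA genes the ratio of iKO over WT had opposite signs in the FISC and ASC pairs by at least the 2-fold rule. Scarna6 had a log2 ratio of −1.51 in FISC and 1.04 in ASC. Snora23 was at 2.61 in FISC and −1.84 in ASC. Snora28 was at 7.19 in FISC and −5.37 in ASC. Snora64 was at 8.80 in FISC and −1.23 in ASC. Scarna6, Snora23 and Snora28 were listed at 0 in 1 library of both pairs, and Snora64 in FISC WT. A gene at 0 in 1 library that passes the filter through the other necessarily reaches the 2-fold rule. In those pairs the call was thus fixed by the filter, and the size of the ratio depends on the 1 FPKM added. With 1 library per group the difference between the states was not tested. The hosts of the same genes, Atg16l1, Ipo7, Eif5 and Rps2, had FISC ratios of −0.25, −0.24, −0.19 and 0.19. In ASC the ratio was 0.14 for Atg16l1, −2.49 for Ipo7, −0.11 for Eif5 and 0.65 for Rps2.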

How the results depend on the processing

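Of 128 alternative values for 19 results, 84 stayed near the reported value, 37 moved and 7 reversed. In FISC, the median of the small RNA genes was 0 without a filter (116 genes), 1.71 without members that share a listed locus (2 genes, 2 higher, 0 lower) and −0.045 without members at 0 in 1 library (4 higher, 1 lower). Their counts were 5 lower at 1.5-fold, and 5 higher and 1 lower at 4-fold. The FISC host median was 0.039 with upper-quartile scaling, 0.034 with scaling to the sum without small RNA genes and 0.38 without members that share a locus, and 1 host was higher at 1.5-fold. The FISC difference between small RNA gene and host was −0.015 without a filter, 1.19 with a filter at 5 FPKM, −0.63 without members at 0 in 1 library and 0.13 with the last-ranked host.

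In ASC, the median of the small RNA genes was 0 without a filter, 0.28 with a filter at 5 FPKM, 0.28 with upper-quartile scaling, −0.045 with scaling to the sum, 2.12 without members that share a locus (2 higher, 0 lower) and 0.051 without members at 0 in 1 library (3 higher, 4 lower), with 3 lower at 4-fold. The ASC host median was 1.22 with upper-quartile scaling, 0.83 with scaling to the sum (4 higher) and 1.03 without members that share a locus (2 of 3 higher), and 1 host was higher at 4-fold. The ASC difference between small RNA gene and host was −1.54 with a pseudocount of 0.1, −0.58 without a filter, −1.36 with a filter at 5 FPKM and without members at 0 in 1 library, and −0.97 with the last-ranked host. The share of small RNA genes in the ASC iKO sum was 0.142% without Mir genes and 0.153% without the 10 highest genes. Members with a peak numbered 0 at a −log10 p of at least 10 and 7 when counted by locus. The cause of these shifts was not tested beyond the genes or peaks each setting removes. The settings on members at 0, on the last-ranked host and on loci were added after the data were seen.

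No paired analysis was possible because each group is 1 library and the labels carry no replicate numbers. For the same reason no library was left out in turn. Without members that share a locus no small RNA gene with a host remained. Depth is unknown, and the files do not give the number of fragments behind a value.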
